A study of Mus musculus with 125 samples.

Results

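Plvap encodes plasmalemma vesicle associated protein, a membrane glycoprotein of endothelial cells, and it was followed here as 1 gene of the 27998 in the single-cell gene tables. Its protein forms the diaphragms that span fenestrae, caveolae and transendothelial channels, the openings through which capillaries exchange fluid and solutes with tissue. Fenestrated vessels carry the protein through life. Vessels of the early brain make it before the blood-brain barrier matures, and mature barrier capillaries are known for its loss, together with the gain of the tight junction protein claudin 5 and of nutrient transporters.

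The single-cell data were 5 libraries of CD31-bead selected mouse brain cells, 1 for each of 5 ages: the embryonic days E9.5, E12.5 and E16.5, postnatal day P8, and the adult of 2 months. The files of the E16.5 library carry a later embryonic day in their names, and the age of its label is used here. Embryonic libraries came from dissected brain digested with collagenase, whereas the P8 and adult libraries came from cortex dissociated with a neural tissue kit, so that age, brain part and dissociation cannot be told apart between E16.5 and P8. The chromatin data were 66 ATAC-seq libraries, in which a transposase cuts open DNA. Of these, 37 were of endothelial nuclei (11 at E12, 14 at P6 and 12 adult) and 29 were of input nuclei of the same tissues (3, 16 and 10). E12 tissue was brain, heart and trunk, and P6 and adult tissue was brain, retina, heart, kidney, liver and lung. All ATAC mice, inputs included, carried a vascular GFP reporter and were given tamoxifen at 0.015 mg/kg. The protocol gives collection at E12.5 for the E12 label and at P7 for the P6 label. The Cre driver and the way endothelial nuclei were separated are not given in the sources used here, nor is it stated whether replicates came from separate mice, so p-values measure only the spread between these libraries.

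Endothelial barcodes were those with at least 200 genes, at most 10% mitochondrial UMIs (unique molecular identifiers, each 1 counted transcript) and at least 3 of Cdh5, Pecam1, Egfl7, Esam, Tie1 and Kdr. By this rule 5644 barcodes were endothelial in the E9.5 library, 6347 in the E12.5 library, 3786 in the E16.5 library, 4778 in the P8 library and 3154 in the adult library. Erythroid transcripts were common among them: barcodes with at least 3 genes of the erythroid list made up between 8.78% (adult) and 81.3% (E12.5). Libraries shared between 0 and 50 barcodes, at most 1.25% of the smaller one. Of the same 6 endothelial genes, 5 or 6 had an ATAC peak within 1 kb of a gene end in every endothelial library, against 0 to 6 (median 4) in the inputs.

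Plvap was a common transcript of brain endothelium at E9.5 and E12.5, a less common one at E16.5 and a rare one at P8 and in the adult. Its level was highest at E12.5 and then lower at each later age. The adult level was 207-fold below that at E12.5, between libraries that also differed in brain part and dissociation. Only 48 of 5756 genes with at least 20 CPM (counts per 1000000 UMIs of those barcodes) at E12.5 were as low or lower by this ratio (0.834%). With 1 library an age there is no replicate check, and intervals are exact 95% ones that cover counting error only.

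At E9.5, 4720 of 5644 endothelial barcodes (83.6%, interval 82.6 to 84.6%) held a Plvap UMI. At E12.5 the share was 89.4% (88.6 to 90.2%). At E16.5 it was 21.6% (20.3 to 23.0%). The drop in positive barcodes between E12.5 and E16.5 came at similar depth, with a median of 10469 UMIs a barcode at E12.5 and 9017 at E16.5. At P8, 91 of 4778 barcodes were positive (1.90%, 1.54 to 2.33%) at a median of 8468 UMIs. In the adult, 5 of 3154 were positive (0.159%, 0.0515 to 0.370%) at a median of 4896 UMIs.

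Summed over endothelial barcodes, Plvap stood at 385.6 CPM at E9.5 and at 525.2 CPM at E12.5. It stood at 101.3 CPM at E16.5, 20.3 CPM at P8 and 2.54 CPM in the adult. Neighbouring ages in this order did not overlap in their counting intervals. The E12.5 level was 1.36-fold that at E9.5 (log2 ratio 0.45, interval 0.42 to 0.47). The E16.5 level was 5.19-fold below E12.5 (5.03 to 5.35), past a 4-fold fall that 1.19% of 6322 genes made between these libraries. The P8 level was 5.00-fold below E16.5 (4.69 to 5.33), where 1.31% of 6541 genes fell 4-fold or more. The adult level was 7.99-fold below P8 (6.15 to 10.6), where 3.48% of 6842 genes did.

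The P8 value depended on the mitochondrial filter. With at most 5% mitochondrial UMIs, 1252 P8 barcodes remained and Plvap stood at 63.0 CPM, 1.66-fold below E16.5 under the same filter, and the adult was then 19.7-fold below P8. The median mitochondrial share was 5.86% over all P8 endothelial barcodes and 4.31% over the 43 P8 barcodes with 5 or more Plvap UMIs, and its part in the P8 level was not tested.

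Barcodes in which none of the 6 endothelial genes was seen gave the background. At E9.5, 14.7% of 1118 such barcodes held a Plvap UMI, at a median depth of 1769 UMIs. At E12.5 the share was 16.2% of 554 barcodes (median 6496.5 UMIs). At E16.5 it was 3 of 51 barcodes (5.88%), and at P8 and in the adult 0 of 130 and 0 of 176, which allows up to 2.31% and 1.70%. Thinned to 1000 UMIs a barcode, endothelial shares were 31.8% at E9.5 and 38.0% at E12.5 against backgrounds of 8.37% and 2.71%. At E16.5 the thinned share was 5.65% (4.94 to 6.44%) and the background 3.92% (0.478 to 13.5%), so a difference from background was not detectable there by the share alone. The P8 and adult shares, 1.90% and 0.159%, lay under the limit that 0 background barcodes allow, without thinning and at median background depths of 1247 and 2463.5 UMIs. By CPM, P8 endothelial barcodes stood at 20.3 (19.1 to 21.4) against a limit of 7.65 for 0 background UMIs. At E16.5 the endothelial and background levels were 101.3 (98.3 to 104.3) and 14.2 CPM (3.87 to 36.4). Adult endothelial barcodes, at 2.54 CPM, lay under their limit of 5.18 CPM.

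**Figure D1:**
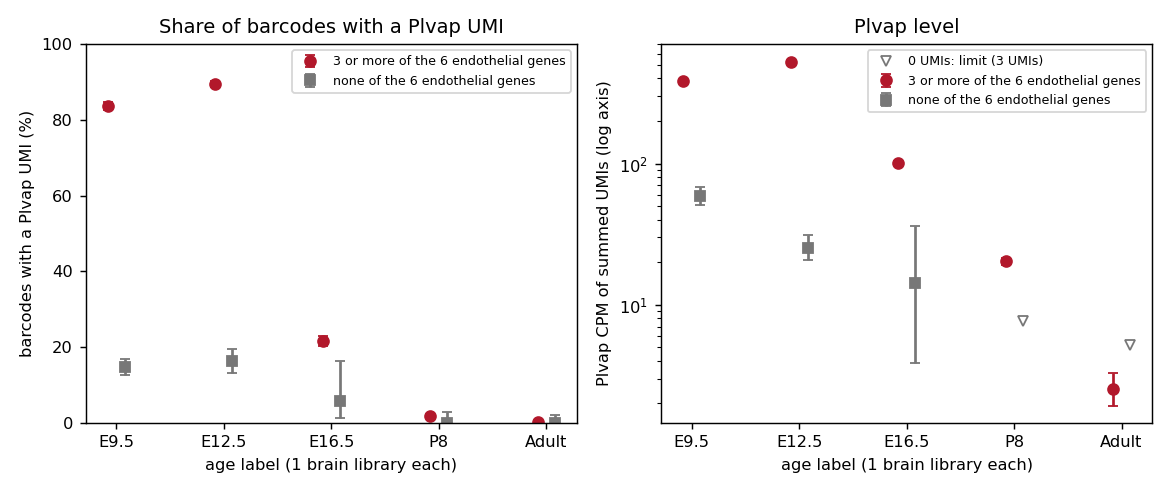
Plvap in 5 mouse brain single-cell libraries by age label: left, the share of barcodes with at least 1 Plvap UMI (%); right, Plvap CPM of summed UMIs on a log axis, with exact 95% intervals and open triangles for the limit that 0 UMIs allow. Endothelial barcodes fall from 525.2 CPM at E12.5 to 2.54 CPM in the adult, and barcodes without the endothelial genes lie below them where UMIs were counted.

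The late Plvap UMIs lay in few barcodes. At E9.5 no endothelial barcode held more than 25 Plvap UMIs and at E12.5 none held more than 53, whereas the highest counts were 120 at E16.5, 91 at P8 and 34 in the adult. Barcodes with 5 or more Plvap UMIs, a split chosen after the counts were seen, made up 24.1% of endothelial barcodes at E9.5 and 53.0% at E12.5. At E16.5 they were 146 barcodes (3.86%), which held 77.7% of all Plvap UMIs. At P8 they were 43 barcodes (0.90%), which held 94.9%. In the adult 2 barcodes, with 22 and 34 UMIs, held 94.9% of the 59 UMIs. A small set of barcodes thus carried most of the late Plvap transcripts, at 1838 CPM within the E16.5 set, 1946 CPM within the P8 set and 1593 CPM within the adult pair.

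**Figure D2:**
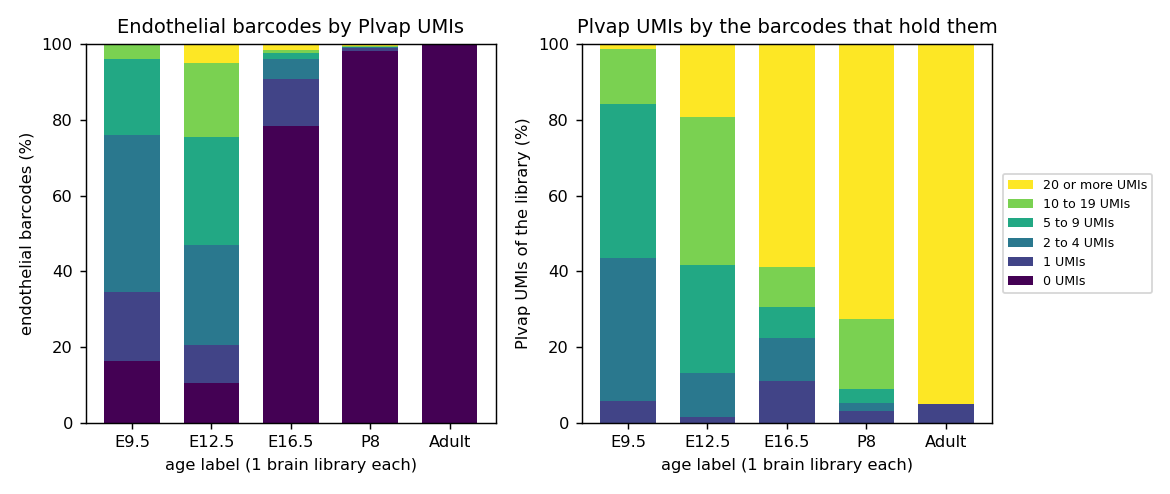
Endothelial barcodes (left, %) and Plvap UMIs (right, % of the library's Plvap UMIs) by the number of Plvap UMIs in the barcode, 1 brain library per age label. From E16.5 on, most barcodes have 0 UMIs while barcodes with 5 or more hold 77.7% to 94.9% of the transcript.

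The P8 barcodes rich in Plvap were high in permeable vessel genes and low in every barrier gene measured. These counts describe barcodes of 1 library chosen on Plvap itself, so no test is given. The gene lists, here and at E16.5, were chosen with earlier results of these data known. Shares of all genes stand beside the counts as a description, and an excess over them is no independent support. A log2 ratio is that of CPM + 10 between barcodes with 5 or more Plvap UMIs and barcodes with none. Genes were counted where they reached 20 CPM in endothelial barcodes of at least 1 of the other 4 libraries, a filter that the barcodes compared do not enter. Of 10 permeable vessel genes 9 did, all but Stab2 (1.67 against 5.05 CPM at P8), and 8 of the 9 were at least 2-fold higher (median log2 ratio 4.43), where 5.39% of 7774 genes were. Plpp3, a lipid phosphate phosphatase, stood at 2653 CPM against 23.0 CPM. Gpihbp1, which holds lipoprotein lipase on capillary walls, stood at 1454 CPM against 7.65 CPM. Igfbp3, a carrier of insulin-like growth factors, stood at 1770 CPM against 30.2 CPM. The exception was Tfpi, an inhibitor of coagulation, at 131 CPM against 133 CPM.

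All 15 barrier genes were at least 2-fold lower in the same 43 P8 barcodes (median log2 ratio -2.64), where 4.43% of genes were. Cldn5, the main claudin of brain endothelial tight junctions, stood at 646 CPM against 5085 CPM. Mfsd2a, a lysophospholipid transporter that restrains vesicle traffic, stood at 62.0 CPM against 816 CPM. Slco1c1, a thyroid hormone and organic anion transporter, stood at 214 CPM against 1670 CPM. Transport and junction genes were thus low together, with Slc2a1 (the glucose transporter GLUT1) at 126 CPM against 834 CPM. Of 15 Wnt barrier signalling genes, 9 were at least 2-fold lower and 2 were higher, the lower ones holding the targets and effectors Apcdd1 (1.67 against 57.0 CPM), Lef1 (31.8 against 187 CPM) and Axin2 (6.70 against 38.6 CPM). The receptor Fzd4 was higher, at 199 CPM against 65.2 CPM, as was its partner Tspan12, at 218 CPM against 72.8 CPM.

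Of the 9 other fenestra and caveola genes, 4 were at least 2-fold higher at P8 and none was 2-fold lower, beside the 5.39% and 4.43% of all genes counted. Ehd4, a membrane remodelling ATPase, stood at 533 CPM against 64.4 CPM. Cav1, which builds the caveolar coat, stood at 333 CPM against 224 CPM, short of 2-fold. Of 12 tip cell genes, 11 passed the filter and 5 were higher (against 5.39% of all genes), with Esm1 (endocan) at 414 CPM against 4.03 CPM and Col4a1 (basement membrane collagen) at 4373 CPM against 1017 CPM. Apln and Adm, tip cell ligands, were lower, at 82.1 against 311 CPM and at 0 against 23.2 CPM. Of 5 VEGF receptor genes, Kdr, Nrp1 and Nrp2 were higher (against 5.39% of all genes), with Kdr at 1861 CPM against 920 CPM. Kdr is also a gene of the endothelial rule that selected the barcodes. The 43 barcodes held a median of 6 rule genes and barcodes without Plvap 5. Nrp1 was already counted among the permeable vessel genes.

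Markers of other cells were read in the same barcodes. With 10 CPM added to both sides, the largest ratio at P8 other than that of Plvap was that of Ttr, the thyroid hormone carrier made by choroid plexus epithelium, at 19354 CPM against 210 CPM. Of its 11556 UMIs, 11512 lay in 1 barcode, and 2 of the 43 barcodes had 10 or more. Without those barcodes, Ttr stood at 39.3 CPM and Plvap at 2101 CPM. The counts were then 8 of 9 permeable and 14 of 15 barrier genes, where 5.65% of all genes were higher and 4.64% lower. The mural list reached at least 3 genes in 25.6% of the 43 barcodes against 9.38% of all P8 endothelial barcodes, and the summed mural level was 921 CPM against 718 CPM. The fibroblast list reached 3 genes in 18.6% of the 43 barcodes (8 barcodes) against 0.460% of all P8 endothelial barcodes. Its summed level was 214 CPM against 39.0 CPM in barcodes without Plvap, led by the collagen gene Col3a1 at 111 CPM against 16.2 CPM. Without barcodes that had 3 or more genes of any other cell type, the counts were 8 of 9 and 15 of 15. Of all genes, 7.54% were then higher and 9.69% lower, more than in the main split. The median depth was 8765 UMIs in the 43 barcodes and 8431 in barcodes without Plvap.

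At E16.5 the 146 barcodes rich in Plvap were at least 2-fold higher in 8 of 9 permeable vessel genes (median log2 ratio 2.30), where 2.14% of 7755 genes were. Gpihbp1 stood at 630 CPM against 28.0 CPM, and Emcn, a sialomucin of capillary and venous endothelium, at 1051 CPM against 206 CPM. Of 15 barrier genes, 10 were at least 2-fold lower (median -1.37), where 2.15% of all genes were. Cldn5 stood at 3067 CPM against 7924 CPM. The lower end of the list was uneven: Abcg2, an efflux pump, stood at 416 CPM against 370 CPM and Itm2a at 2675 CPM against 3425 CPM. This barrier count rested on the split, and the share of all genes moved with it. Only 3 of 15 were lower when barcodes with 3 or more Plvap UMIs were taken, where 0.812% of all genes were. With 10 or more it was 12 of 15, where 4.01% of all genes were. The mural list reached 3 genes in none of the 146 barcodes against 3.75% of all E16.5 endothelial barcodes, and 4 of 8 mural genes were at least 2-fold lower there (summed level 15.9 against 214 CPM), as barrier genes were. Without barcodes that had 3 or more genes of any other cell type, 11 of 15 barrier genes were lower, where 2.13% of all genes were. The median depth was 10224 UMIs against 8423.

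The adult pair of barcodes is given as values alone. Fabp4, a fatty acid carrier of peripheral capillaries, had 670 UMIs in them (19058 CPM against 5.58 CPM). Stab2, the scavenger receptor of sinusoidal vessels, had 24 UMIs and Gpihbp1 had 60. Itm2a, Slco1a4 and Abcb1a had none, while barcodes without Plvap held 4085, 1720 and 1080 CPM of them. The median depth of the pair was 17578 UMIs, against 4890 in barcodes without Plvap.

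**Figure D3:**
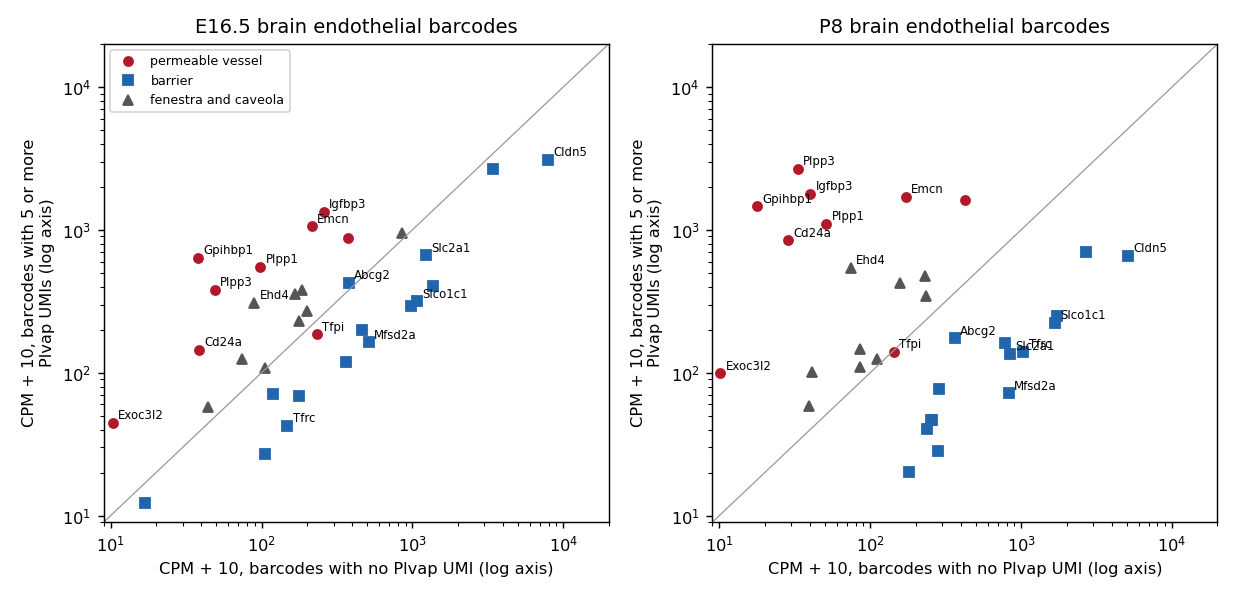
CPM + 10 (log axes) of permeable vessel, barrier and other fenestra and caveola genes in endothelial barcodes with 5 or more Plvap UMIs against barcodes with none, at E16.5 and P8. Each point is a gene that reached 20 CPM in another library, from lists chosen with earlier results of these data known. At both ages 8 of 9 permeable genes lie at least 2-fold above the diagonal. Of the barrier genes, 10 of 15 (E16.5) and 15 of 15 (P8) lie at least 2-fold below it.

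The genes that varied with Plvap from barcode to barcode were read library by library. Within each library, Pearson's r was taken over endothelial barcodes on ln(1 + UMIs per 10000), for 7058 genes detected in at least 5% of barcodes of every library. The points of an r share a library and its depth differences, and r is given as a description. The highest mean r over the 5 libraries was that of Plpp3, at 0.31, with 0.12 and 0.18 in the first 2 embryonic libraries, 0.42 at E16.5, 0.66 at P8 and 0.15 in the adult. Emcn followed at 0.28, and was the gene with the highest r of all at E12.5 (0.45). Emp1, a tetraspan membrane protein, had a mean of 0.28 and the highest r at E16.5 (0.49). Plpp1 (0.25), Igfbp3 (0.25), Ldb2 (0.23), Tm4sf1 (0.22), 1810011O10Rik (0.22), Clec14a (0.22) and Col4a1 (0.21) made up the rest of the first 10. This order rested in part on the adult library, which had 5 positive barcodes. Over the other 4 libraries Emcn came first, at 0.350, and Plpp3 followed at 0.346. There 9 of the 10 genes stayed among the first 10, while Ldb2, whose adult r was 0.24, ranked 15.

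Cldn5 had the lowest mean r with Plvap over the 5 libraries, at -0.21, and its r changed sign with age. Without the adult library the mean of Fth1 was lower (-0.253 against -0.248 for Cldn5). The r of Cldn5 was 0.071 at E9.5 and -0.046 at E12.5, then -0.50 at E16.5 and -0.51 at P8, the lowest of all 7058 genes at both ages. The other genes at the low end were the ferritin chain Fth1 (-0.20), the immunoglobulin family protein basigin, Bsg (-0.19), the amino acid transporter Slc7a1 (-0.15) and the ribosomal Rpl38 (-0.15). The 8 barrier genes with an r had medians of 0.033, -0.037, -0.21, -0.21 and -0.051 from E9.5 to adult, beside medians over all genes between -0.0035 and 0.015. The 7 permeable vessel genes had 0.12, 0.21, 0.29, 0.45 and 0.037.

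The genes whose level over the 5 ages had the shape most like that of Plvap were Plagl1, Cotl1, Cks1b, Clec1b, Marcksl1, Gpx3, Igf2, Sox11, Maged2 and Dbn1. Likeness was the root mean square difference of centred log2(CPM + 10) over the 5 libraries, from 0.52 for Plagl1 to 0.69 for Dbn1, among 7845 genes that reached 20 CPM in a library. Plagl1, an imprinted zinc finger gene, stood at 164, 216, 97.6, 15.2 and 1.38 CPM from E9.5 to adult. Igf2, an imprinted growth factor, stood at 310, 294, 59.0, 13.1 and 14.9 CPM. None of the 10 belongs to the fenestra, permeable vessel or barrier lists. These lists have only 10, 10 and 15 members, so few of any 10 genes would belong, and the absence is no result about Plvap. The caveolar genes differed among themselves. Cav1 stood at 11.6 CPM at E9.5, highest at E16.5 (852 CPM), and at 261 CPM in the adult. Cavin3 stood highest at E12.5 (305 CPM), as Plvap did, and at 154 CPM at P8 and 212 CPM in the adult. Ehd4 fell from 157 CPM at E9.5 to 70.4 CPM at P8 and stood at 197 CPM in the adult. Cavin2, a caveolar coat protein, stood highest in the adult, at 808 CPM. All 15 barrier genes stood lower at E9.5 than at E16.5, P8 and in the adult, as did 42.3% of 7844 genes, Cldn5 standing at 572 CPM at E9.5 and 7707 CPM at E16.5, and Slco1a4 at 0 UMIs at E9.5 and 1712 CPM in the adult. At E12.5, when Plvap was highest, 12 of the 15 stood below their P8 level (51.2% of all genes did), and Slc2a1 (1174 against 830 CPM), Abcg2 (400.0 against 355 CPM) and the amino acid transporter Slc7a5 (303 against 223 CPM) stood above it.

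In open chromatin, the start of Plvap had a peak in every deposited E12 endothelial list and in no adult brain or retina endothelial list. Plvap lies on mouse chromosome 8 (mm10, chr8:71497753-71511806) and is read on the minus strand, so that its start is at 71511806. Its last part overlaps Gtpbp3, a mitochondrial tRNA modification gene, and peaks there cannot be given to either gene. The peaks are those of the authors, called per library. Peaks within 1 kb of the start were present in 32 of 37 endothelial and 10 of 29 input libraries.

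At E12, all 3 brain, 4 heart and 4 trunk endothelial libraries had the start peak. At P6 it was in 8 of 8 heart, kidney, liver and lung libraries and in 5 of 6 brain and retina libraries, the exception being P6 brain 1, whose list was short (27160 peaks, others of that set 79903 to 92863). In the adult it was in 8 of 8 heart, kidney, liver and lung libraries and in 0 of 4 brain and retina libraries. These lists differed in length, with 39096 to 120456 peaks at E12, 27160 to 92863 at P6 and, in the adult, 38465 to 45276 in barrier and 19464 to 47334 in peripheral lists. Among the 19000 top peaks of each library, the start peak was in 9 of 11 E12 libraries (not in brain 2 or heart 1). At P6 it was then in 7 of 8 peripheral and 0 of 6 barrier libraries, and in the adult in 6 of 8 peripheral (not in heart) and 0 of 4 barrier libraries. The split between peripheral and barrier lists at P6 thus differed with list length. Adult barrier lists lacked the peak in full, so their top peaks could not hold it, and this count cannot test the part of list length. The share of all regions split in this way among top peaks was not counted. The length under top peaks within 1 kb of the start, a setting chosen after seeing the data, passed at neither age. Exact permutation tests gave adjusted p = 0.0798 at P6 and 0.137 in the adult. Of 8194 genes 114 passed at P6, 27 as lower in barrier lists, and of 8120 genes 714 passed in the adult, 29 as lower. Among input libraries the peak was in 5 of 5 lung libraries and in none of 5 brain or 5 retina libraries. The whole merged start region, chr8:71511165-71512128, covers the first part of the gene and the sequence before it.

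The authors' peak scores at the start varied with organ and age. At E12 the -log10 q was 16.9 to 23.8 in brain, 7.63 to 20.3 in heart and 15.1 to 20.3 in trunk. The lowest of these, in heart 3 with 10139069 tags, went with the highest fold enrichment at E12 (4.98). At P6 the -log10 q was 3.64 and 5.30 in the 2 brain libraries with the peak, 6.28 to 7.65 in retina and 9.95 to 23.6 in the peripheral organs. The fold enrichment of the same P6 peaks overlapped, at 3.41 and 4.11 in brain, 4.34 to 4.45 in retina and 3.48 to 5.48 in the peripheral organs. P6 brain and retina libraries kept 14021669 to 20153603 tags and peripheral ones 19273774 to 34352068. The part of depth in these scores was not tested. Adult peripheral values were 1.56 to 12.9, lowest in heart.

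**Figure D4:**
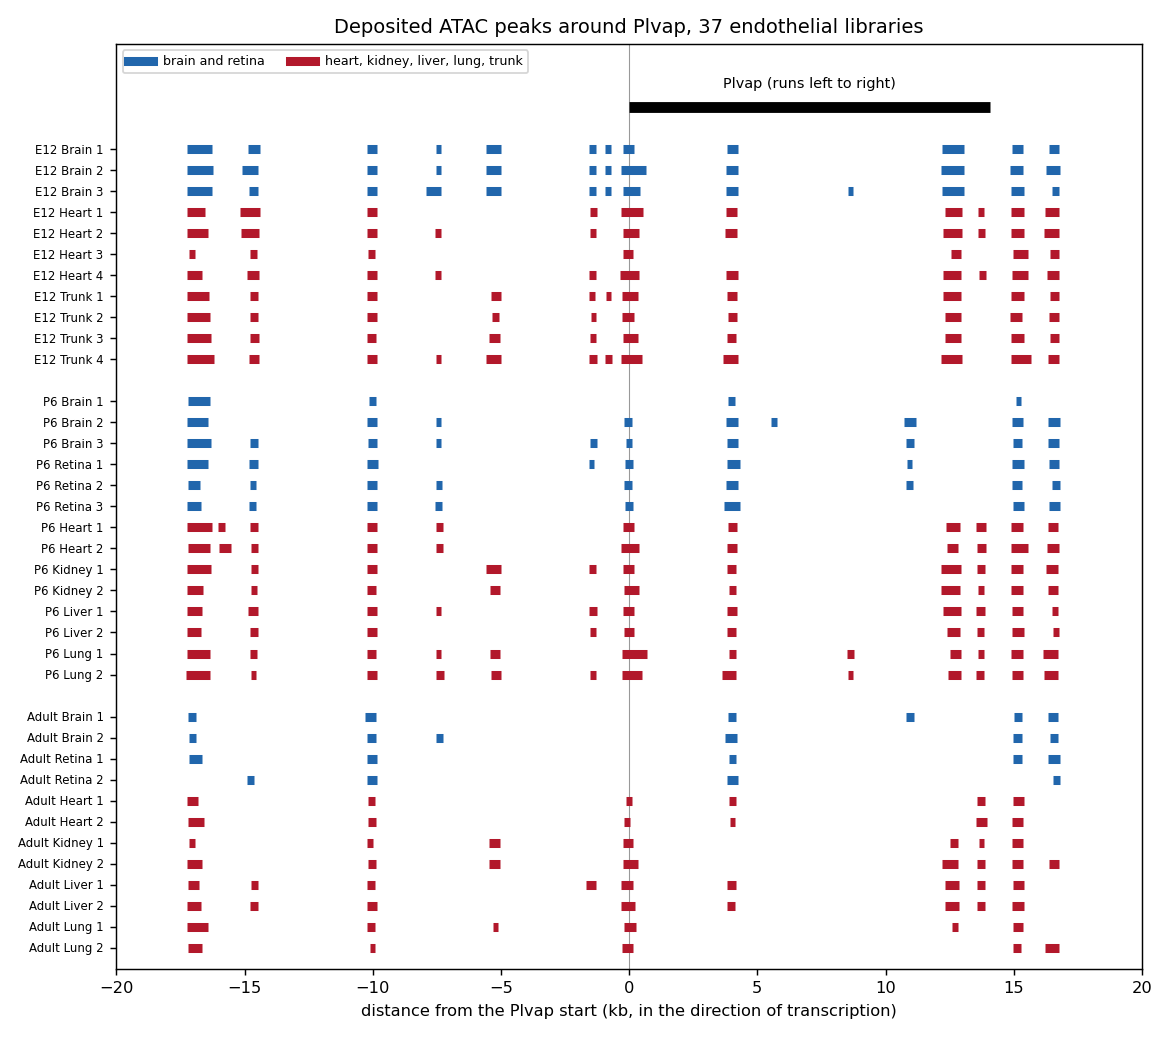
Deposited ATAC peaks of the 37 endothelial libraries within 20 kb of the Plvap start, against distance from the start in the direction of transcription (kb); each row is a library and each bar a peak, blue for brain and retina and red for other tissues. The start column is filled in all E12 rows, in 5 of 6 blue P6 rows and in no blue adult row.

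The length under peaks from 5 kb upstream of the start to the gene end was compared between organs with vessels that form a blood-tissue barrier (brain and retina) and the other 4. Each test was an exact permutation test over libraries, two-sided, adjusted by the Benjamini-Hochberg method over all genes with the same window. Single libraries were permuted, so libraries of the same organ counted as independent, although they share the organ and mostly the read processing. Barrier status differs only between organs, brain and retina against the other 4. A test with organs as the units was not run, so these p-values do not tell barrier status from other differences between organs. In these bulk libraries, fewer nuclei with open DNA and less open DNA per nucleus cannot be told apart.

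In adult brain the 2 libraries had 0.621 and 0.469 kb under peaks, and in adult retina 0.275 and 0.422 kb. Adult liver had 2.05 and 1.74 kb, kidney 0.897 and 1.53 kb, heart 0.873 and 0.813 kb and lung 0.691 and 0.397 kb. Liver was highest, and lung overlapped brain and retina. The barrier mean was 0.447 ± 0.143 kb (SD, n = 4) and the peripheral mean 1.12 ± 0.576 kb (SD, n = 8), a difference of -0.68 kb that did not pass (exact permutation p = 0.0343, adjusted p = 0.107). Of 11734 genes, 17.8% passed, and 0.366% passed as lower in barrier vessels. Within 1 kb of the start the difference was -0.41 kb and passed (0 kb in each of 4 libraries against 0.410 ± 0.131 kb in 8; exact permutation p = 0.00202, the smallest possible, adjusted p = 0.0270). There 12.4% of 9374 genes passed, 0.267% as lower. This start call counts libraries, and organs as units were not tested. From 50 kb before to 50 kb after the gene the sign turned (1.10 kb, exact permutation, adjusted p = 0.294). When only the 19000 top peaks of each library were used, a setting chosen after seeing the data, the start difference was -0.35 kb and did not pass (exact permutation, adjusted p = 0.137).

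At P6 the 3 brain libraries had 0.266, 1.44 and 1.21 kb and the 3 retina libraries 1.22, 1.05 and 0.980 kb. Lung had 2.14 and 2.60 kb, kidney 2.18 and 1.87 kb, liver 2.16 and 1.75 kb and heart 1.67 and 1.91 kb. Every peripheral library lay above every barrier library. The barrier mean was 1.03 kb (n = 6) and the peripheral mean 2.03 kb (n = 8), and the difference of -1.01 kb passed narrowly (exact permutation p = 0.000333, the smallest possible, adjusted p = 0.0488). Of 13343 genes, 0.682% passed, 0.187% as lower. Here too libraries were counted, and organs as units were not tested. The call did not hold in 13 of 14 exact permutation tests that left out 1 library, where adjusted p reached 0.0997 without P6 brain 2; it held without P6 brain 1 (difference -0.85 kb, adjusted p = 0.00906). Beside this, the start window gave -0.33 kb (exact permutation, adjusted p = 0.0676). The call was also lost with the 19000 top peaks of each library (-0.36 kb, exact permutation, adjusted p = 0.214), with peaks of -log10 q of at least 5 (-1.16 kb, 0.0790), from 50 kb before to 50 kb after the gene (-2.27 kb, 0.220) and with a replicate block (-1.04 kb, 0.268). With -log10 q of at least 5 and with the replicate block, the unadjusted permutation p was again the smallest possible (0.000333 and 0.00444). The call held per 1000000 bases under peaks (-39.4 bases per 1000000, exact permutation, adjusted p = 0.0166), a setting in which 1542 of 13343 genes passed.

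Read processing, as named in the file headers, differed between organs, and only lung shared its kind with brain or retina libraries. Within that kind, adult retina had 0.275 and 0.422 kb and no start peak, and adult lung 0.397 and 0.691 kb and a start peak in both. At P6, 5 brain and retina libraries of that kind averaged 0.992 kb and the 2 lung libraries 2.37 kb. These are the within-kind values of the same direction, and they overlap in the adult.

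At E12, brain had 2.21, 2.91 and 2.75 kb, heart 2.40, 2.41, 0.763 and 2.43 kb and trunk 2.20, 1.66, 1.77 and 2.76 kb. The groups overlapped. The brain mean was higher by 0.57 kb (2.62 against 2.05 kb), which did not pass (exact permutation p = 0.182, adjusted p = 0.508), and 0.0% of 13774 genes passed by this permutation test, 1845 of them having an unadjusted p under 0.05. The direction turned when only the 19000 top peaks of each library were used, to -0.49 kb (exact permutation, adjusted p = 0.648). Read processing differed between brain and the other E12 tissues, and it and tissue cannot be told apart.

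Against input nuclei, Plvap had more sequence under peaks in P6 endothelium. Over 6 organs, with labels permuted within organ, the P6 difference, the mean of the 6 organ differences, was 0.78 kb (mean of organ means 1.70 kb over 14 endothelial and 0.923 kb over 16 input libraries; permutation p = 6e-05, adjusted p = 0.0013), where 33.4% of 14324 genes passed, and 4.2% passed as higher in endothelium. With the 19000 top peaks of each library the difference was 0.19 kb and did not pass (permutation test, adjusted p = 0.376). The start window in those peaks gave 0.31 kb and passed (permutation test, adjusted p = 0.0163), as did 1134 of 9095 genes. All P6 endothelial libraries lay above all inputs of their organ in heart, kidney, liver, lung and retina, and the groups overlapped in brain. Each side of an organ had only 2 or 3 libraries. The share of all genes separated in this way was not counted, so the separation is given as a description. In the adult the difference was 0.37 kb and did not pass (exact permutation p = 0.116, adjusted p = 0.260), where 6.28% of 13229 genes passed. Scaled per 1000000 bases under peaks the adult difference passed (35.0 bases per 1000000, exact permutation, adjusted p = 0.0156), as did 2042 of 13229 genes. From 50 kb before to 50 kb after the gene its sign turned (-0.11 kb, exact permutation, adjusted p = 0.917). Adult liver stood apart, with 1.74 and 2.05 kb in endothelium against 0 and 0.211 kb in input. Adult brain endothelium, at 0.469 and 0.621 kb, lay below its 1 input library, at 0.957 kb. Adult heart endothelium, at 0.873 and 0.813 kb, lay above its 1 input library, at 0.386 kb. Adult kidney endothelium, at 0.897 and 1.53 kb, overlapped with its inputs, which had 0.0 and 1.345 kb. Adult retina and lung endothelium overlapped with their inputs, which had 0.321 to 0.563 kb and 0.347 to 0.914 kb. Read processing differed between endothelial libraries and input 1 in adult retina and adult lung, and between P6 brain endothelial 1 and 2 and the P6 brain inputs. The adult inputs of the same kind had 0.563 kb (retina) and 0.914 kb (lung), above both endothelial libraries of their organ. The part of read processing was not tested.

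Between P6 and adult, endothelial libraries had 0.80 kb less under peaks at Plvap (means of the 6 organ means, 0.898 against 1.70 kb; permutation p = 0.00029, adjusted p = 0.00172). This is no result about the gene, since 75.3% of 13549 genes passed, 75.2% as lower in the adult. With lists of equal length the difference was -0.060 kb (permutation test, adjusted p = 0.659).

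**Figure D5:**
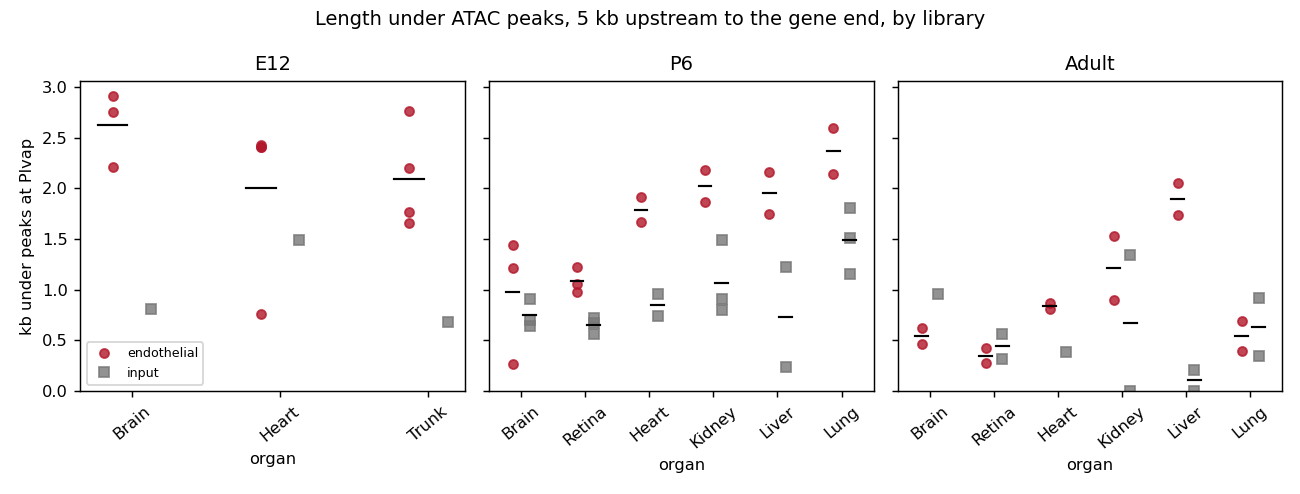
Length under ATAC peaks (kb) from 5 kb upstream of the Plvap start to the gene end, by organ and age; each point is a library, circles endothelial and squares input, and short lines are means of groups with more than 1 library. P6 brain and retina circles lie below those of the other organs, and adult liver circles lie highest in the adult panel.

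Peaks merged over all lists, where at least 2 of 66 held one, gave 39 regions on Plvap or within 50 kb of it. Of 101697 regions with an adult endothelial peak, 0.353% were in all 8 peripheral and no barrier library, as the start region was. At P6 that share was 0.313% of 184193 regions.

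A pair of regions near the gene end had the same split at P6. The one centred 12.6 kb into the gene (chr8:71498746-71499654) was in 8 of 8 peripheral and 0 of 6 barrier libraries at P6, and in 5 of 8 and 0 of 4 in the adult. At E12 it was in all 11 libraries, brain included, so that it, like the start, had a peak in every E12 library and in no adult barrier library, which 3.07% of 196388 regions shared. The one at 13.7 kb (chr8:71497887-71498278) was in 8 of 8 and 0 of 6 libraries at P6 and in 6 of 8 and 0 of 4 in the adult. At E12 it was in 3 of 4 heart, 0 of 3 brain and 0 of 4 trunk libraries. Both lie where Gtpbp3 overlaps Plvap, and they were in 9 and 7 of 29 input libraries.

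Upstream, a region 5.3 kb before the start (chr8:71516792-71517391) was absent from every barrier library after birth. It was in 3 of 8 peripheral libraries in the adult, both of kidney and 1 of lung. At P6 it was in 4 of 8, both of kidney and both of lung. At E12 it was in 3 of 3 brain and 4 of 4 trunk libraries and in 0 of 4 heart libraries. Heart thus lacked it at every age. This upstream region was also in 5 of 29 input libraries, 4 of lung and 1 of kidney. The share of all regions with such a split was not counted. A region 1.4 kb before the start was in 10 of 11 E12 libraries, and one at 0.8 kb was in 3 brain and 2 trunk libraries at E12 and in no other library of any kind. Neither was in any input library.

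Near Plvap 1 region was seen in brain and retina endothelium alone. This region, 10952 bp into the gene (chr8:71500690-71501018), was in adult brain 1, in 2 P6 brain and in 2 P6 retina libraries, and in no other endothelial or input library. Of 244487 regions with an endothelial peak, 0.0434% were in at least 5 of these 10 P6 and adult barrier libraries and in no other library, a pattern defined after this region was seen. A region at 4.0 kb (chr8:71507374-71508213) was in 4 of 4 barrier and 4 of 8 peripheral libraries in the adult, in 32 of 37 endothelial libraries over all ages and in 25 of 29 inputs. Further away, 7 regions, on Mvb12a, Bst2, Ccdc194, Gtpbp3, Dda1, Mrpl34 and Abhd8, were in all 37 endothelial libraries and in 28 or 29 inputs. One at 43.0 kb before the start, on Tmem221, was in 7 of 8 peripheral and 0 of 6 barrier libraries at P6 and in all 11 libraries at E12. In the adult it was in only 1 of 8 peripheral and 0 of 4 barrier libraries. It was also in 4 of 29 inputs, all of lung, and the share of all regions with this split was not counted. One at 16.7 kb before the start, in no gene, was in 36 of 37 endothelial and 11 of 29 input libraries.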

How the data were processed

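Single-cell UMI counts per gene and barcode were deposited by the authors as raw 10x Genomics 3′ v2 matrices. They came from Cell Ranger, with Seurat 4.0.4 also named, per the submitters' processing notes. The E16.5 matrix was read with the gene table of the other libraries: its summed log levels correlated with theirs at 0.93 to 0.98 as read and at 0.20 to 0.21 with rows moved by 1. Doublets and free RNA were not removed. ATAC peaks were called on each library with MACS2 as broad peaks (q under 0.05 and 0.1 for the broad step, shift -100 and extension 200), per the file headers, on mm10. Each peak has a pileup height, a fold enrichment and a -log10 q, as deposited by the authors. Alignment used Bowtie2, with SAMtools 1.13 and Picard, per the submitters' processing notes. Libraries kept 10139069 to 59082479 tags, per the file headers, and held 19464 to 144197 peaks. Transcript tables of the bulk RNA-seq were not used here.

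CPM were taken from UMIs summed over barcodes, and shares have exact binomial and CPM exact Poisson intervals at 95%. The limit that a count of 0 allows is 3 counts. Bases under peaks were summed from 5 kb upstream of each gene's start to its end for 17493 genes with a RefSeq strand, that of Plvap being taken from general knowledge. Genes with peaks in at least 4 of the compared libraries were tested. Permutations were enumerated up to 100000. Where there were more, 100000 were drawn, or 20000 when 1 library was left out. An adjusted p under 0.05 was a call. Scripts, checked on simulated data, ran in Python 3.11.15 with NumPy 2.4.6, SciPy 1.17.1, pandas 2.3.3 and numba 0.67.0.

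The genes named were Plvap, the 10 with the nearest profile over ages, the 10 with the highest and 5 with the lowest mean r, and members of gene lists, besides genes within 50 kb. The gene and these lists were chosen with earlier results of these data known. Genes leading the barcodes rich in Plvap, such as Ttr, Col3a1 and Fabp4, were named after their values were seen, and the filter on genes counted there was set after seeing the data. Alternatives were other windows, peak thresholds, list lengths and scales, left-out libraries, a replicate block, and other filters on barcodes.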

Additional observations from a re-analysis of the deposited data

Results flagged for a closer look

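E12 heart 3 stood apart from the other heart endothelial libraries, with 0.763 kb under peaks against 2.40 to 2.43 kb in the other 3. Its list was also the shortest of the group, 39096 peaks where the others reached 120456, and its part in the low value was not tested. P6 brain 1 stood apart among the 6 P6 brain and retina endothelial libraries by the length under peaks within 1 kb of the start, 0.0 kb against 0.218 to 0.343 kb. It also stood apart from 50 kb before to 50 kb after the gene, with 3.88 kb against 8.86 to 10.9 kb, and had the shortest list of the 6. Over 30 groups and measures looked at, 3 gave such a gap, and chance alone gives about 1 in 20.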

How the results depend on the processing

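For the start window alone, the adult barrier difference was -0.41 kb and passed (permutation tests, here and below; adjusted p = 0.0270) and the P6 one was -0.33 kb and did not (0.0676). From 50 kb before to 50 kb after the gene, the adult barrier difference changed sign (1.10 kb, permutation test, adjusted p = 0.294), the P6 one was -2.27 kb (0.220) and the adult endothelial minus input one -0.11 kb (0.917). With -log10 q of at least 5 the P6 barrier difference was -1.16 kb (0.0790). With 19000 top peaks per library it was -0.36 kb (0.214), the E12 difference was -0.49 kb (0.648), the P6 endothelial minus input one 0.19 kb (0.376) and the adult minus P6 one -0.060 kb (0.659). The start window within those top peaks, a setting added after seeing the data, gave -0.50 kb for the P6 barrier (0.0798), -0.16 kb for E12 (0.729) and -0.097 kb for adult minus P6 (0.214). Scaled per 1000000 bases under peaks, the adult endothelial minus input difference was 35.0 bases per 1000000 and passed (0.0156), as did 2042 of 13229 genes, and the adult minus P6 one was -0.92 (0.899). The cause of these changes was not tested.

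Same-numbered libraries were not taken as pairs, since their deviations correlated at -0.31 to 0.14 in 38 barrier and peripheral pairs (1 over 0.1) and at -0.31 to 0.28 in 20 endothelial and input pairs (7 over 0.1, among them all 4 of kidney and both of adult liver). Where both groups had only 2 libraries, their 2 pairs have the same r by construction. These counts of pairs therefore hold repeated values, as for adult kidney and adult liver, and not that many separate checks. With a replicate block the P6 barrier difference was -1.04 kb and did not pass (exact permutation, adjusted p = 0.268), and genes called there went from 91 to 0 (1763 with an unadjusted p under 0.05). Adult endothelial minus input calls went from 831 to 0 (2414 unadjusted), and the other Plvap calls kept their side. Leaving out 1 library gave P6 barrier differences of -1.09 to -0.85 kb, 13 of 14 of which did not pass (adjusted p 0.00906 to 0.0997). In each of these runs, and with the replicate block at P6, the unadjusted permutation p of Plvap was the smallest possible. In the other 5 comparisons every left-out library kept the side and sign, with adult barrier differences of -0.78 to -0.54 kb (0.0916 to 0.253).

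Shares of positive barcodes moved with the endothelial rule: 74.4% (2 genes) and 89.7% (4 genes) at E9.5, and 84.4% and 91.6% at E12.5. Without barcodes of other cell types they were 85.9% and 87.3%. Thinned to 1000 UMIs they were 31.8%, 38.0%, 5.65% and 0.927% from E9.5 to P8, and to 2000 UMIs 52.0%, 57.1%, 7.71% and 1.09%. With at most 5% mitochondrial UMIs the P8 share was 3.19%. The log2 ratio of E12.5 to E9.5 was 0.48 with 2 genes, 0.41 with 4 genes, 0.51 with 5% mitochondrial UMIs and 0.67 without other types. That of E16.5 to E12.5 was -2.31 with 2 genes, -2.32 with 5% and -2.44 without other types. That of P8 to E16.5 was -0.73 with 5%, -2.70 without other types, and -2.13 and -2.07 when thinned to 1000 and 2000 UMIs. That of adult to P8 was -4.30 with 5% and -4.06 when thinned to 2000. All ratios kept their sign. Peak lists of unequal length limit the chromatin comparisons, and 59 adult UMIs limit the adult level.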

Other observations

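At E9.5, when most endothelial barcodes held Plvap, Col4a1, a chain of basement membrane collagen, had the highest r of all 7058 genes with Plvap (0.38); at P8 it ranked 28 (0.22). Emcn ranked 8 at E9.5 and 13 at P8, and Igfbp3 28 and 5. The 4 tip cell genes with an r had a median of 0.23 at E9.5 and 0.091 at P8, and the 7 arterial genes 0.18 and -0.0039, beside medians over all genes of 0.015 and -0.0035. The 6 genes of the endothelial rule itself had medians of 0.14 at E9.5 and 0.23 at E12.5. These r values come from barcodes of 1 library an age that differ in depth, and are a description; the difference between ages was not tested.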
